A study of Mus musculus with 12 samples.

Results

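miR-221 and miR-222 are 2 microRNAs (miRNAs) encoded side by side on the mouse X chromosome, and they were taken as the 2 rows mmu-mir-221 and mmu-mir-222 among the 589 miRNA precursors of a small RNA sequencing table of the cerebral cortex. The pair was chosen by its position as a cluster with a common seed and selected on the measured difference of mmu-mir-222 between WT + EtOH and WT, one of the largest in the table, so the WT + EtOH and WT values of both are given as a description without a test. Female C57BL/6J mice, 7 weeks old at the start, were either wild type (WT, TLR4+/+) or TLR4 knockout (TLR4-KO, TLR4-/-). They drank water (WT and TLR4-KO) or water with 10% (v/v) alcohol (WT + EtOH and TLR4-KO + EtOH) for 5 months, and all 4 groups ate the same solid diet. Each group has 3 libraries, 12 in all, and each library was made from the pooled cortical RNA of 3 mice, so an SD over libraries is a spread between pools. TLR4 is the receptor for bacterial lipopolysaccharide, and its loss in the knockout is not limited to a cell type. The libraries hold no mRNA, and the genotype could not be checked in them.

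A miRNA is cut from a hairpin precursor and guides silencing complexes to mRNAs that pair with its seed, bases 2 to 8 from the 5′ end. miR-221 and miR-222 are thought to be processed from 1 primary transcript. They are known for repressing the cell cycle inhibitor p27 (Cdkn1b) and the receptor Kit, are abundant in endothelial and smooth muscle cells of vessels, and can be induced through NF-κB and AP-1, transcription factors that also act downstream of TLR4.

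The mature sequences are shown with the seed in capitals, since the shared seed is what joins the pair. They are the RefSeq entries on GRCm38.p6, in which both precursors were found.
mmu-miR-221-3p: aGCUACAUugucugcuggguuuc
mmu-miR-222-3p: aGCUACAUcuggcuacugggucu
mmu-miR-221-5p: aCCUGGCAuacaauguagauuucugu
mmu-miR-1928: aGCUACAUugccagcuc
The 3p sequences of miR-221 and miR-222 were both 23 bases long and identical over the first 8, while 12 of the later positions differed. Counted from 1 at the 5′ end, with the base of miR-221-3p first, the differences were U9C, G10U, U11G, C12G, U13C, G14U, C15A, U16C, G17U, U20G, U22C and C23U. Of 1738 mature mouse sequences, 3 carried this seed, and the third was mmu-miR-1928, whose precursor mmu-mir-1928 was listed at 0 in all 12 libraries. miR-221-5p has another seed.

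The hairpins are printed with the 3p sequence in capitals, because the deposited rows are named for hairpins and do not tell their arms apart.
mmu-mir-221: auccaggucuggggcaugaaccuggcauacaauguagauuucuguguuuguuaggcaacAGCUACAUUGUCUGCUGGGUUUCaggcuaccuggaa
mmu-mir-222: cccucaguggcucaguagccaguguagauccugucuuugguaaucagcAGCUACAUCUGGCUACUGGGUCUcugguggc
In GRCm38 the hairpins lie on the minus strand at chrX:19146294-19146388 (mmu-mir-221, 95 bases) and chrX:19146893-19146971 (mmu-mir-222, 79 bases), with 504 bases between them. GENCODE M21 places neither inside another gene, so they are intergenic in that annotation. The closest other gene, Gm14636, a processed transcript on the same strand, lies 10009 bases from mmu-mir-222. Within 50 kb the annotation holds no further miRNA gene, and the cluster thus consists of these 2 hairpins.

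For orientation on what the shared seed reads, the 3′ UTRs of 2 textbook targets were searched on the sense strand for ATGTAGC, the complement of the seed. The match is in capitals.
Cdkn1b (chr6:134924420-134924448, plus strand): aaaagcattggATGTAGCattgcgcaatt
Kit (chr5:75654981-75655009, plus strand): atgggagatatATGTAGCaagactagaaa
Kit (chr5:75656512-75656540, plus strand): taaatattgaaATGTAGCaataatgtctt
Each of the 3 matches is followed by an A, the base that stands opposite position 1 of the miRNA. The 3′ UTR of Cdkn1b (3439 bases) held 1 match and that of Kit (2177 bases) held 2. The same letters occurred in 9.42% of 20981 mouse 3′ UTRs, in 23.3% of the 974 within 10% of the length of the Cdkn1b 3′ UTR and in 15.0% of the 1337 near that of Kit. The target mRNAs were not measured in these libraries.

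The deposited values are normalized scores without a stated unit, on what appears to be a scaled logarithmic scale. The highest value is 134.8 in every library, 0 is kept at 0, and differences are in units of the score and are not folds. No read count stands beside a value in the deposited table, so the counting error of a value could not be computed from it, and the read totals that the study gives elsewhere were not used here. Of the 589 precursors, 324 were above 0 in at least 1 library and 190 in all 12. The number above 0 in a library ranged from 216 to 270, and the lowest value above 0 ranged from 1.25 to 14.1. The 10 neuronal precursors set as cortex markers (mmu-mir-124, mmu-mir-128, mmu-mir-138 and mmu-mir-9 copies) were above 0 in all 12 libraries. RNA came from whole cortex, in which fewer cells of a type and less RNA per cell cannot be told apart.

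mmu-mir-221 was above 0 in all 12 libraries, with a mean of 39.3 ± 5.19 (SD, n = 12), at rank 124 of the 324 precursors. mmu-mir-222 was above 0 in 9 of 12 libraries, at rank 203. Whether the scores are per length is not stated, so the amounts of the precursors were not compared with each other.

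The WT libraries gave 35.6, 38.3 and 41.5 for mmu-mir-221. In WT + EtOH the values were 39.3, 41.5 and 47.1. The TLR4-KO libraries gave 28.2, 36.1 and 35.9. All 3 libraries of TLR4-KO + EtOH were higher than these, at 39.0, 43.6 and 46.2. The mean was highest in TLR4-KO + EtOH (42.9 ± 3.65, SD, n = 3), with WT + EtOH next (42.6 ± 4.03), then WT (38.5 ± 2.96), and TLR4-KO last (33.4 ± 4.50). In that order the first 2 differ by less than their SD, and WT + EtOH and WT overlap in range, as do WT and TLR4-KO.

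For mmu-mir-222, the WT libraries were at 10.9, 4.23 and 0. In WT + EtOH the values were 25.4, 23.95 and 17.6, above every WT library. TLR4-KO had 20.9 in replicate 1 and 0 in the other 2 libraries. TLR4-KO + EtOH had 26.7, 18.1 and 17.5. Each alcohol library of either genotype thus held a value, against 2 of 3 libraries in WT and 1 of 3 in TLR4-KO. By median, WT + EtOH stood first with 23.95, followed by TLR4-KO + EtOH with 18.1, WT with 4.23 and TLR4-KO with 0. The ranges of WT + EtOH and TLR4-KO + EtOH overlap, and so do those of WT and TLR4-KO.

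**Figure D1:**
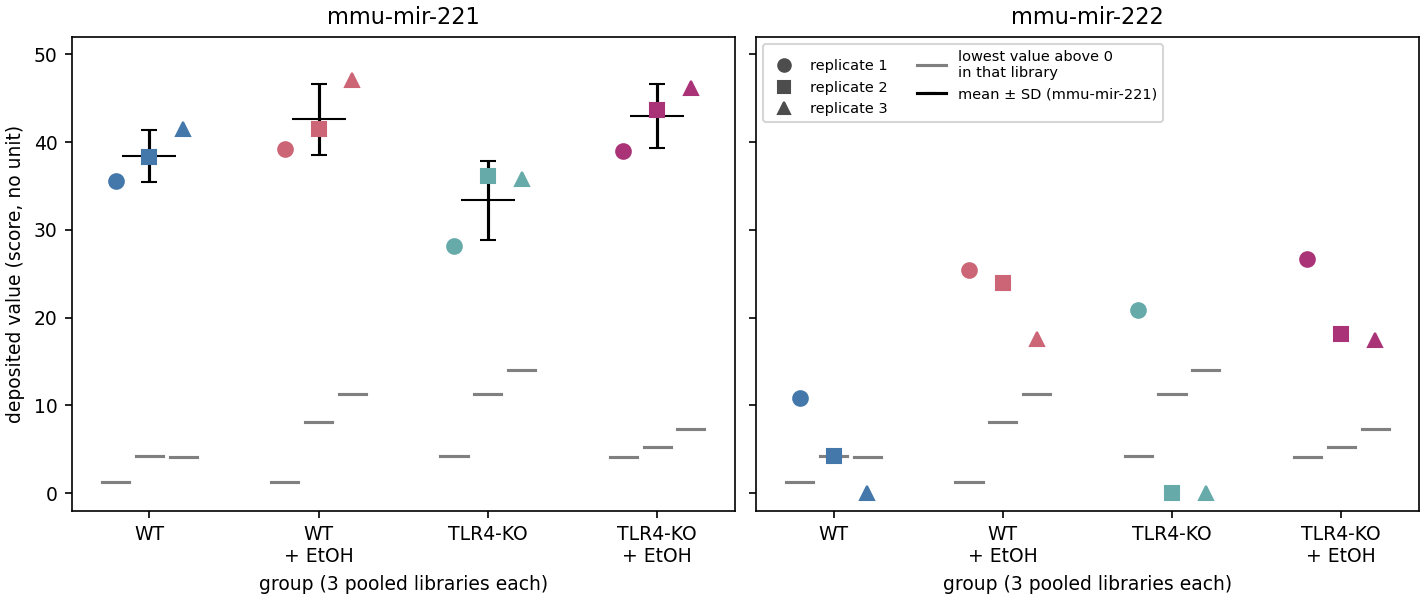
Deposited value (score, no unit) of mmu-mir-221 and mmu-mir-222 in each library, by group; symbols are replicates, black bars are the mean ± SD over 3 libraries for mmu-mir-221, and grey dashes mark the lowest value above 0 in the same library. mmu-mir-222 is at 0 in 1 WT and 2 TLR4-KO libraries, and mmu-mir-221 is at 28.2 or above everywhere.

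The low values of mmu-mir-222 stood close to the end of the scale. The 4.23 of WT replicate 2 was the lowest value above 0 in that library, and 15 precursors shared it. The lowest value above 0 was 4.08 in WT replicate 3, where mmu-mir-222 was at 0. In the 2 TLR4-KO libraries at 0, no precursor had a value between 0 and 11.3 (replicate 2) or between 0 and 14.1 (replicate 3). The step from 0 to a value was therefore large by itself in these libraries, and a 0 does not show that the miRNA was absent. The values of 17.6 in WT + EtOH replicate 3 and of 17.5 in TLR4-KO + EtOH replicate 3 compare with lowest values above 0 of 11.3 and 7.29 there.

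The effect of alcohol without TLR4 is the comparison that did not enter the choice of the pair. mmu-mir-221 was higher in TLR4-KO + EtOH than in TLR4-KO in each of the 9 pairings of libraries, with a difference of 9.52 (standard error 3.07, 95% interval 2.50 to 16.6, n = 3 per group). It did not pass the threshold over 589 precursors (adjusted p = 0.433 from limma). The two-sided exact permutation test gave p = 0.1, the smallest value that 3 against 3 libraries allow. Groups that did not overlap, with the alcohol group higher, were found in 7.1% of the 324 precursors and, with the alcohol group lower, in 4.01%, while limma called 0.34% of the 589. mmu-mir-222 was higher by 13.8 (standard error 5.94, 95% interval 0.177 to 27.4) but in 7 of 9 pairings, because TLR4-KO replicate 1 stood at 20.9 (adjusted p = 0.685 from limma, exact permutation p = 0.3). In order of the rise, mmu-mir-222 was 6th and mmu-mir-221 18th of 589 precursors, of which 154 rose. Next to mmu-mir-222 in that order were mmu-mir-146a (13.8, adjusted p = 0.394 from limma), a known NF-κB target, and mmu-mir-539 (13.5).

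The result for mmu-mir-222 depended on what a 0 stands for. With each 0 set to the lowest value above 0 of its library, a setting chosen after the values were seen, the difference was 5.33 (adjusted p = 0.290 from limma). With values of 0 left out, TLR4-KO kept 1 library and the difference was −0.165 (adjusted p = 1). Without TLR4-KO replicate 1 it was 20.8 (adjusted p = 0.126). mmu-mir-221, which has no 0, was higher by 6.92 to 11.5 whichever of the 12 libraries was left out. It passed the threshold with the number of precursors above 0 as a covariate (difference 11.9, adjusted p = 0.0328 from limma), which was likewise chosen after the values were seen. Over its alternatives the adjusted p of mmu-mir-221 went up to 0.965.

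Alcohol in WT is the comparison by which the pair was chosen. mmu-mir-222 was higher in WT + EtOH than in WT by 17.3 (standard error 5.94), in all 9 pairings, and had the 2nd largest rise of 589. Just above it was mmu-mir-490 with 18.4, at 0 in the 3 WT libraries and at 12.03, 20.5 and 22.8 with alcohol. Just below it were mmu-mir-505 and mmu-mir-712, both with 15.1 and both at 0 in WT. mmu-mir-221 was higher by 4.15 (standard error 3.07), in 7 of 9 pairings, and stood at place 74 of the 154 precursors with a rise. With the number of precursors above 0 as a covariate, chosen after the values were seen, its difference was 0.603 and that of mmu-mir-222 23.9. Groups that did not overlap, with alcohol higher, made up 13.3% of the 324 precursors and, with alcohol lower, 17.3%, and 1.7% of the 589 were called by limma.

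The comparisons between the genotypes share libraries with the one used for the choice, and they are given without a test. Without alcohol, mmu-mir-221 was lower in TLR4-KO than in WT (difference −5.06, standard error 3.07), and the groups overlapped. For mmu-mir-222 the difference was 1.94 (standard error 5.94) and became −5.04 without TLR4-KO replicate 1 and −0.583 without WT replicate 3. With values of 0 left out it was 13.4. With alcohol in both genotypes, TLR4-KO + EtOH and WT + EtOH differed by 0.306 for mmu-mir-221 (standard error 3.07) and by −1.58 for mmu-mir-222 (standard error 5.94). Neither of these exceeds its standard error. In these comparisons at equal treatment, the genotypes overlapped for both members. Among the 324 precursors, TLR4-KO lay above WT without overlap in 13% and below it in 15.4%, and with alcohol in both genotypes these shares were 4.32% and 4.63%. limma called 2.55% of 589 precursors without alcohol and 0.509% with it.

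Subtracting the alcohol difference in WT from that in TLR4-KO left 5.37 for mmu-mir-221 (standard error 4.34) and −3.51 for mmu-mir-222 (standard error 8.40), which was not tested since it contains the comparison used for the choice. For mmu-mir-222 it was 3.46 without TLR4-KO replicate 1.

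**Figure D2:**
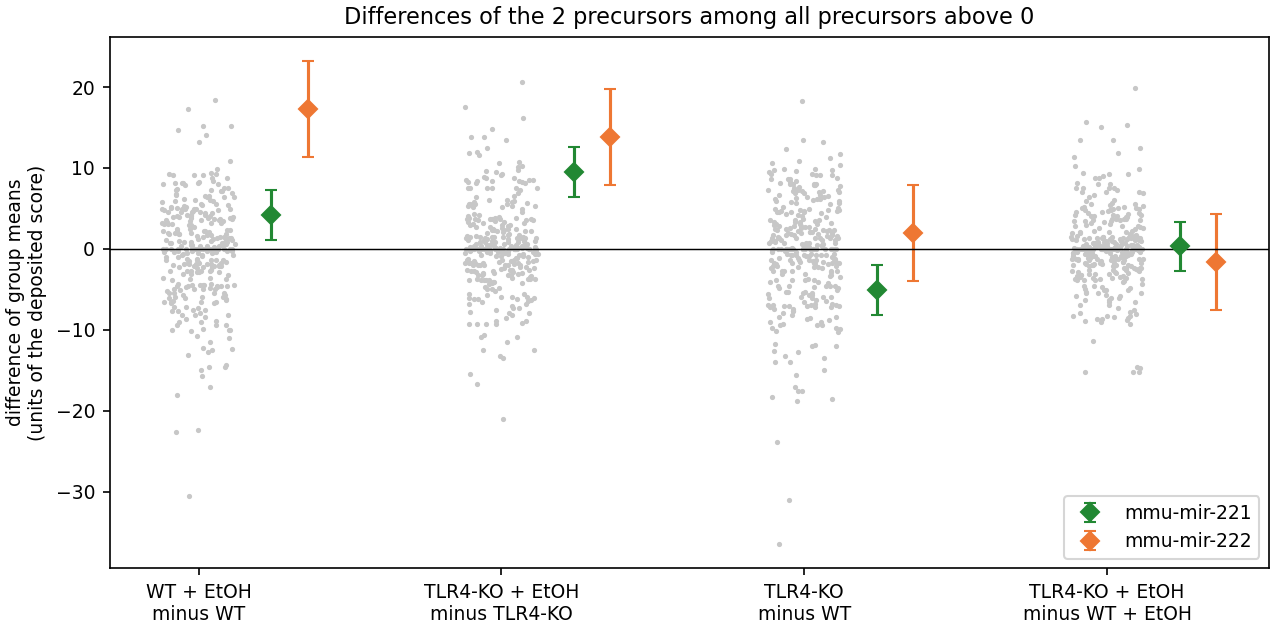
Difference of group means in units of the deposited score for 4 comparisons; grey points are the 324 precursors above 0 in at least 1 library, the members included, and diamonds with bars are mmu-mir-221 and mmu-mir-222 with the standard error from limma. Both members lie above 0 in both alcohol comparisons (4.15 and 17.3 in WT, 9.52 and 13.8 in TLR4-KO).

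Over all 12 libraries the correlation of mmu-mir-221 with mmu-mir-222 was r = 0.158 and Spearman's rho was 0.190, given as a description since these include the libraries by which the pair was chosen. Without the 2 libraries farthest from the median of mmu-mir-221, WT + EtOH replicate 3 and TLR4-KO replicate 1, r was 0.422 over 10 libraries.

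Within the groups they moved in opposite directions. After the group mean was taken off each value, r was −0.925 over the 12 libraries, given as a description. In each of the 4 groups the library with the lowest mmu-mir-221 was also the one with the highest mmu-mir-222, and it was replicate 1 each time. Its values of mmu-mir-221 and mmu-mir-222 were 35.6 and 10.9 for WT and 39.3 and 25.4 for WT + EtOH. For TLR4-KO they were 28.2 and 20.9, and for TLR4-KO + EtOH 39.0 and 26.7.

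These 4 libraries were also those with the most precursors above 0 in their group, 270 for both WT groups and 262 for both knockout groups, against 216 to 260 in the other 8. The deviation from the group mean of the number of precursors above 0 had r = −0.858 with that of mmu-mir-221 and r = 0.819 with that of mmu-mir-222. Among 214 precursors compared in this way, mmu-mir-221 had the 22nd most negative r and mmu-mir-222 the 10th most positive, and 115 were negative and 99 positive. The part of library detection in the opposite movement of the pair was not tested. Without these 4 libraries, mmu-mir-221 was higher by 8.90 and mmu-mir-222 by 17.8 in TLR4-KO + EtOH against TLR4-KO (adjusted p = 0.455 and 0.127 from limma, a setting chosen after the values were seen). The same setting gave 4.40 and 18.7 for WT + EtOH against WT.

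**Figure D3:**
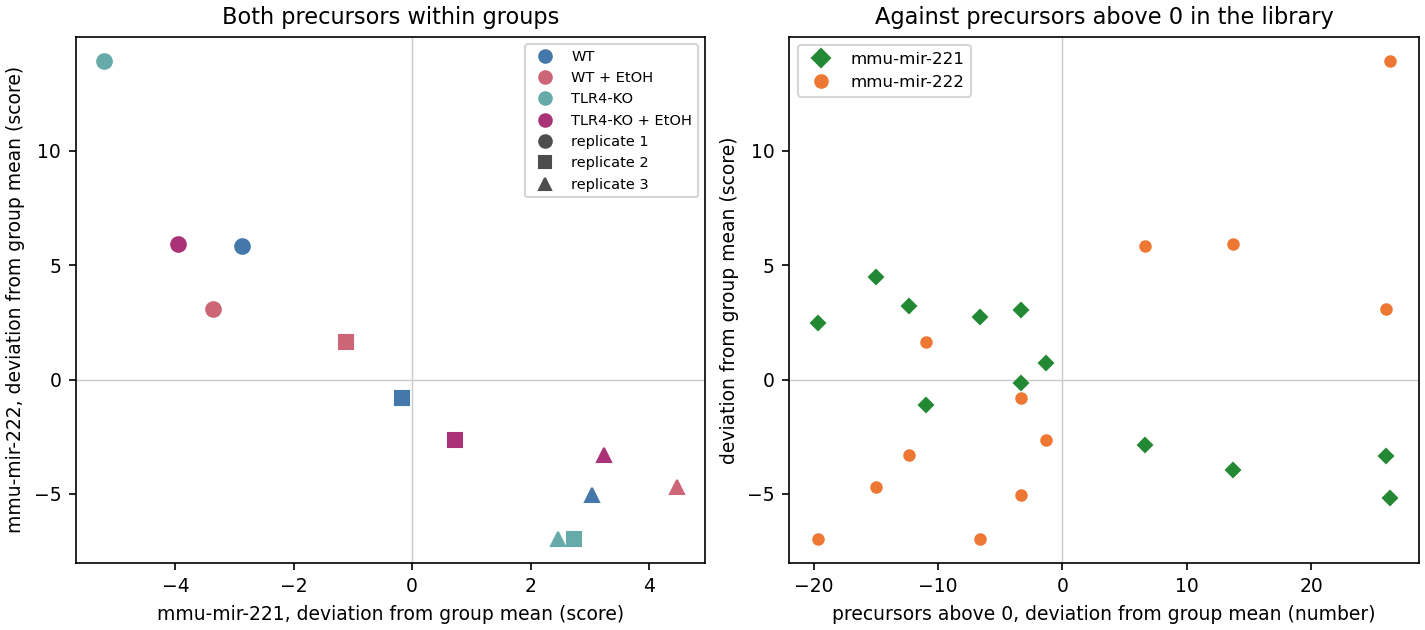
Left, deviation from the group mean of mmu-mir-222 against that of mmu-mir-221 (score), with colours for groups and symbols for replicates; right, both deviations against that of the number of precursors above 0 in the library. The 4 libraries of replicate 1 lie at the upper left of the left panel (r = −0.925 over 12 libraries).

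Other neighbouring precursors served as a comparison. Of the precursors with 1 annotated position that were above 0 in at least 9 libraries, 135 pairs lay within 10 kb of each other on a strand. mmu-mir-222 met this limit with exactly 9, among them every alcohol library but 2 of 3 in WT and 1 of 3 in TLR4-KO. Its deviations thus rest in part on values of 0. The r of their deviations from the group means had a median of −0.0491 and was under 0 in 73 pairs, and that of mmu-mir-221 with mmu-mir-222 was the lowest. The next were mmu-mir-431 with mmu-mir-434 (−0.871) and mmu-mir-299a with mmu-mir-379 (−0.763), from the imprinted Dlk1-Dio3 cluster, and mmu-let-7c-1 with mmu-mir-99a (−0.703). At the other end stood mmu-mir-182 with mmu-mir-183 (0.954) and mmu-mir-136 with mmu-mir-434 (0.893). The pairs share libraries and often a precursor, and no test was made of them.

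**Figure D4:**
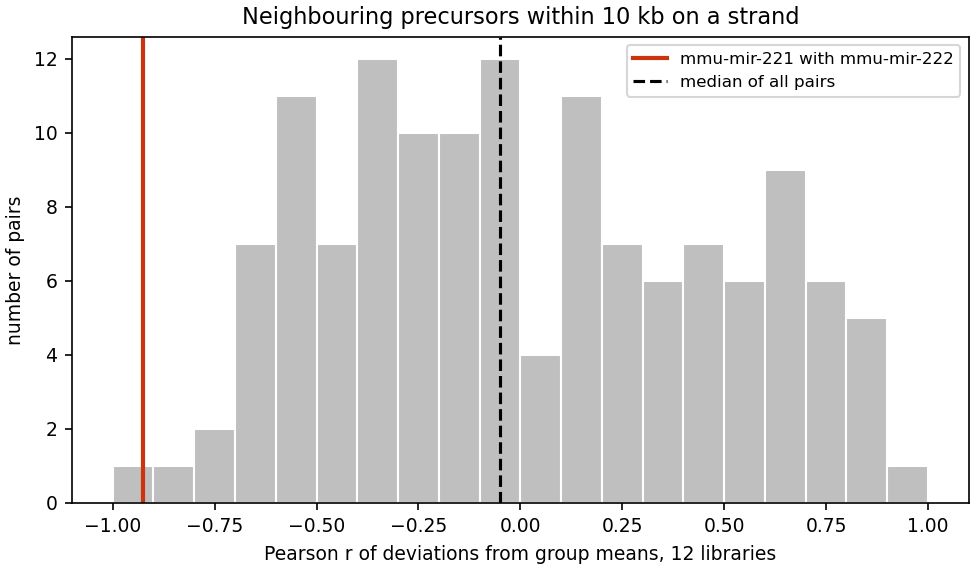
Number of neighbouring precursor pairs (within 10 kb on a strand) by the Pearson r of their deviations from group means over 12 libraries. The pair of mmu-mir-221 and mmu-mir-222 (red line, −0.925) lies at the low end of the 135 pairs, whose median is −0.0491 (dashed line).

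The 5 precursors whose values were most like those of mmu-mir-221 over the 12 libraries held none of the 5 most like mmu-mir-222. Among 215 candidates above 0 in at least 9 libraries, mmu-mir-221 was most like mmu-mir-3102 (r = 0.799), which had a value in every group except TLR4-KO, where all 3 libraries stood at 0, and had 13.7, 18.1 and 20.8 in TLR4-KO + EtOH. It was followed by mmu-mir-1843b (0.691), mmu-mir-1247 (0.686), mmu-mir-6240 (0.672) and mmu-mir-434 (0.631). mmu-mir-222 was most like mmu-mir-383 (r = 0.804), with a mean of 73.9 in the WT libraries and 82.6 once alcohol was given. In the corresponding knockout groups its means were 79.0 and 79.5. In TLR4-KO it stood at 91.7 in replicate 1 and at 72.7 in replicates 2 and 3. The r of its deviations from the group means with those of mmu-mir-222 was 0.885, so the likeness also lay within the groups. Next came mmu-mir-370 (0.674), mmu-mir-873b (0.640), mmu-mir-350 (0.627) and mmu-mir-125b-2 (0.610), one of the most abundant brain miRNAs. Each member stood at place 89 in the order of the other. These r values describe 12 libraries that share their normalization, and for each member they were picked as the highest of 215. The 12 include the WT and WT + EtOH libraries by which the pair was chosen. For mmu-mir-222 this favours precursors that were higher with alcohol in WT, as all 5 listed were.

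The rest of chromosome X is described by its counts. Of 38 further X-linked precursors in the table, 23 were above 0 in a library, and their median difference was 0.529 for alcohol in WT and 0 for alcohol in TLR4-KO, beside a median of 0 over the 324 precursors in both. limma called 1 of the 38 with alcohol in WT, against 1.7% of all 589, and this was mmu-mir-351, which has the seed of the miR-125 family. mmu-mir-351 had 58.8, 55.1 and 53.9 in WT against 64.6, 62.3 and 64.6 in WT + EtOH, so that it rose by 7.93 (adjusted p = 0.0212 from limma). Its call was lost with 5 of the 12 libraries when each was left out in turn (highest adjusted p over all alternatives 0.143). Without alcohol mmu-mir-351 was also called higher in TLR4-KO than in WT, by 8.65 (adjusted p = 0.00948 from limma). Its alcohol effects in the knockout and in WT differed by −9.93 (adjusted p = 0.0416 from limma), a call lost with 11 of the 12 libraries when each was left out in turn. None was called with alcohol in TLR4-KO by limma, where 41 of all precursors had an unadjusted p under 0.05 and 2 were called. The 3 others with the highest mean score on the chromosome were mmu-let-7f-2 (alcohol differences of −6.53 in WT and −3.88 in TLR4-KO), mmu-mir-532 (5.39 and 5.67) and mmu-mir-361 (1.17 and −2.70), whose adjusted p by limma lay between 0.196 and 1.

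Vascular precursors, set as a list because miR-221 and miR-222 are abundant in vessels, were 11 in the table and 8 above 0. None was called in any comparison by limma, which called 2 to 15 of all 589 precursors per comparison. Their median difference was −4.93 for alcohol in WT and 0.347 for alcohol in TLR4-KO. With alcohol in WT, 2 of the 8 rose and 6 fell. The copies mmu-mir-199a-1 and mmu-mir-199a-2, equal in every library, count as 2 of them. mmu-mir-126a, the endothelial miRNA, had a mean of 61.2 in WT, and that of WT + EtOH was 54.6 (alcohol difference −6.58, with adjusted p = 0.289 by limma) and differed by 0.0601 with alcohol in TLR4-KO. mmu-mir-143, a smooth muscle miRNA, had a difference of −6.45 in WT (adjusted p = 0.0649 from limma), whereas mmu-mir-145a, its cluster partner, had 8.09 (adjusted p = 0.151). The summed level of the list ranged over 359 to 369 among WT libraries and 336 to 348 among those of WT + EtOH, and over 339 to 368 and 358 to 363 among the knockout libraries without and with alcohol, and mmu-mir-145b, mmu-mir-199b and mmu-mir-214 were at 0 in all libraries. The part of vascular RNA in the values of the pair was not tested.

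NF-κB and TLR responsive precursors numbered 7 in the table and 6 above 0, and limma called none in any comparison. Over all 589 precursors it called 2 to 15 per comparison, so the lack of calls among so few says little. Their median difference was −3.23 for alcohol in WT and 1.04 for alcohol in TLR4-KO. mmu-mir-146a, which limits TLR signalling, had 46.4, 46.4 and 48.6 in WT against 37.8, 42.5 and 42.5 in WT + EtOH. Its TLR4-KO libraries gave 29.6, 36.8 and 39.1, and those of TLR4-KO + EtOH gave 58.3, 46.4 and 42.1. In the knockout its alcohol libraries thus lay above those without alcohol, as for mmu-mir-221, and in WT they lay below. Such separation was found in 7.1% and 17.3% of the 324 precursors, in the same order. mmu-mir-21a and mmu-mir-146b differed by −8.21 and −8.18 with alcohol in WT (adjusted p = 0.518 and 0.418 from limma). mmu-mir-212 had means of 54.0 in WT and 57.1 in WT + EtOH, and mmu-mir-132 had 50.4 and 50.2. Of the 6 precursors above 0, 1 rose and 4 fell with alcohol in WT. mmu-mir-155 was above 0 in 2 TLR4-KO libraries only.

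Markers of other cells of the cortex moved as follows beside the pair. Over all 589 precursors limma called 1.7% with alcohol in WT, 0.34% with alcohol in TLR4-KO and 2.55% in TLR4-KO against WT. The lists are short, so few or no calls in a list say little. Of 4 leukocyte precursors, mmu-mir-150, a lymphocyte miRNA, rose with alcohol in WT by 7.41 (adjusted p = 0.0444 from limma). The others were not called, and mmu-mir-223, a myeloid miRNA, was at 0 in all libraries. mmu-mir-142a went the other way, with means of 44.2 in WT, 41.4 in WT + EtOH and 32.5 in TLR4-KO. mmu-mir-342 had 22.0, 32.9 and 23.7 in the same groups. Of 3 erythroid precursors, mmu-mir-451a fell by 14.6 in WT (adjusted p = 0.0346 from limma), and the others were not called. mmu-mir-486a had means of 105.9 in WT, 105.5 in WT + EtOH and 106.4 in TLR4-KO. mmu-mir-144, above 0 in 3 libraries only, had means of 4.13 in WT and 5.33 in WT + EtOH and was at 0 in TLR4-KO. Without alcohol, mmu-mir-150 and mmu-mir-451a were called in the same direction in TLR4-KO against WT. There the difference was 9.28 for mmu-mir-150 and −17.6 for mmu-mir-451a (adjusted p = 0.00958 and 0.00948 from limma). With each of the 12 libraries left out in turn, the call with alcohol in WT was lost 9 times for mmu-mir-150 and 8 times for mmu-mir-451a (highest adjusted p 0.165 and 0.125 by limma over all alternatives), and neither changed direction. Their part in the values of the pair was not tested. Oligodendrocyte precursors (3), neuronal precursors (10) and those of choroid plexus and ciliated cells (7) gave 0 calls by limma in either alcohol comparison, and none of the lists gave a call with alcohol in TLR4-KO. mmu-mir-338, an oligodendrocyte miRNA and the only one of its list above 0 in every library, had 29.2, 36.5 and 35.5 in TLR4-KO against 45.2, 40.4 and 41.2 in TLR4-KO + EtOH. These groups did not overlap, as for mmu-mir-221 and in 7.1% of the 324 precursors with alcohol higher. The difference for mmu-mir-338 was 8.501 (adjusted p = 0.556 from limma). In WT its difference with alcohol was 3.59 (adjusted p = 1 by limma), and the groups overlapped. The copies mmu-mir-219a-1 and mmu-mir-219a-2 were at 0 in all knockout libraries, which sets the median of the list to 0 there. The part of oligodendrocyte RNA in the values of the pair was not tested. The medians for alcohol in TLR4-KO were 0 for oligodendrocyte, −0.00121 for neuronal, −0.0291 for leukocyte, −1.33 for erythroid and −6.83 for choroid plexus and ciliated cell precursors. In WT they were 3.59, 2.52, 7.41, −0.383 and −0.768, in the same order.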

How the data were processed

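Small RNA of pooled mouse cortex was sequenced in 12 libraries of 4 groups, taken from the titles of the samples. According to the methods and the submitters' processing notes, the authors trimmed adapters with Cutadapt, mapped reads to non-coding RNA databases with Bowtie2 2.2.5 and TopHat (GRCm38), filtered alignments, counted reads and applied TMM normalization. The deposited table holds 1 score per precursor and library, without a stated unit; its shared levels and narrow range resemble a scaled, quantile-type logarithm, and no count model was run. The table gives no depth, and the read totals in the study's text and supplements were not used here.

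Scores were used as deposited. limma 3.58.1 in R 4.3.3 (default eBayes, 1 mean per group, no covariate) was fitted over 589 precursors, with Benjamini-Hochberg adjustment and a threshold of 0.05. Its total degrees of freedom were 8.31. Exact permutation tests used scipy 1.17.1. Figures used matplotlib 3.10.9. The fit was tested on simulated data. The members and lists were chosen with earlier results of these data known. How mice were assigned to pools is not given in the sources used here, and p-values measure the spread between these pools.

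Named were the 2 members, precursors of their seed, annotated neighbours within 50 kb, the 5 most alike to each, those next to mmu-mir-222 in order of the rise in WT, list members called, and up to 4 of a list by mean. Of the NF-κB and TLR responsive list, all 6 precursors above 0 were named. mmu-mir-539 and the neighbouring pairs besides the members were named after their values were seen. Alternatives were quantile normalization, centring on the library median or on miR-181b, a filter (above 0 in at least 3 libraries), the groups of a comparison alone, a replicate block, robust eBayes, values of 0 as missing and each library left out. Positions are from GENCODE M21, where 547 of 589 precursors had a single position.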

Additional observations from a re-analysis of the deposited data

Results flagged for a closer look

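The alcohol effect on mmu-mir-351, an X-linked precursor outside the pair, differed between the genotypes, with 7.93 in WT and −2.005 in TLR4-KO (knockout effect minus WT effect −9.93, adjusted p = 0.0416 from limma). This call was lost when any 1 of 11 of the 12 libraries was left out, and the highest adjusted p over its alternatives was 0.130. For mmu-mir-146a the WT + EtOH libraries all lay below those of WT (−6.21), the TLR4-KO + EtOH libraries all lay above those of TLR4-KO (13.8), and the effects differed by 20.01, which did not pass the threshold (adjusted p = 0.194 from limma). For mmu-mir-150 the alcohol libraries all lay above those without alcohol in WT (7.41) and below them in TLR4-KO (−3.01). Its effects differed by −10.4 (adjusted p = 0.0511 from limma), which did not pass the threshold either. Of the 324 precursors, 13.3% lay above and 17.3% below without overlap with alcohol in WT. With alcohol in TLR4-KO these shares were 7.1% and 4.01%.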

How the results depend on the processing

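Of 244 recomputed values of the pair, 225 kept their direction and their side of the threshold or moved by less than the spread. This total does not measure stability, since many of the values could not move. In the comparisons without a test only the difference was judged. Robust eBayes, the replicate block, the filter and leaving out a library outside the comparison do not change a difference. In TLR4-KO + EtOH against TLR4-KO, mmu-mir-221 passed the threshold with the replicate block (difference 9.52, adjusted p = 0.0335 from limma) and with precursors above 0 as a covariate (11.9, chosen after seeing the data, as were leaving out 4 libraries and setting 0 to the lowest value above 0), while mmu-mir-222 did not with the block (adjusted p = 0.320) and turned to −0.165 with values of 0 as missing. Pairing by number is not given by the labels. Over the precursors above 0 in at least 9 libraries, deviations from group means of libraries with the same number had correlations from −0.120 to 0.167. The numbers were not taken to pair the libraries, and whether libraries of the same number share a batch was not tested. In each group, replicate 1 held the most precursors above 0, the lowest mmu-mir-221 and the highest mmu-mir-222, which these correlations do not address. No replicate block value changed another call of the pair. With 1 library left out, mmu-mir-221 ranged from 6.92 to 11.5 and mmu-mir-222 from 10.3 to 20.8 in this comparison, from 1.92 to 5.83 and from 14.8 to 20.2 in WT + EtOH against WT, from −6.50 to −2.46 and from −5.04 to 5.42 in TLR4-KO against WT, from −1.37 to 2.54 and from −4.54 to 0.0734 in TLR4-KO + EtOH against WT + EtOH, and from 2.77 to 7.60 and from −7.00 to 3.46 for the difference of the alcohol effects. Between the alcohol groups the sign for mmu-mir-221 turned when replicate 1 or 2 of WT + EtOH, or replicate 2 or 3 of TLR4-KO + EtOH, was left out, and that for mmu-mir-222 without TLR4-KO + EtOH replicate 3. The correlation of the pair ranged from 0.0781 to 0.426. In TLR4-KO against WT, mmu-mir-222 was at 13.4 with values of 0 as missing, 11.3 with the covariate and −2.12 without the 4 libraries with the most precursors, and mmu-mir-221 at −10.1 with the covariate. Centring on miR-181b turned mmu-mir-221 to −2.07 between the alcohol groups. For the difference of the alcohol effects, the covariate gave 11.2 for mmu-mir-221 and −14.4 for mmu-mir-222, and values of 0 as missing −14.9 for mmu-mir-222. The causes were not tested.

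The number of precursors called moved from 2 to between 0 and 4 in TLR4-KO + EtOH against TLR4-KO, from 10 to between 4 and 59 in WT + EtOH against WT, from 15 to between 3 and 63 in TLR4-KO against WT, from 3 to between 0 and 6 in TLR4-KO + EtOH against WT + EtOH and from 7 to between 0 and 58 for the difference of the alcohol effects, where the covariate gave the highest number of each range. It was 21, 31 and 13 in WT + EtOH against WT, TLR4-KO against WT and the difference of the alcohol effects with the filter, and in TLR4-KO against WT 24 with the replicate block and 31 with values of 0 as missing. The calls of mmu-mir-351, mmu-mir-150 and mmu-mir-451a with alcohol in WT were lost in 8, 14 and 10 of 23 alternatives, and those in TLR4-KO against WT in 2, 3 and 1, with no change of direction. That of mmu-mir-351 for the difference of the alcohol effects was lost in 15 of 22. The deposited scores carry no read counts, so no counting interval was computed for the low values of mmu-mir-222.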
